A study of Mus musculus with 29 samples.

Results

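Young cardiac fibroblasts kept for 48 h on SoftY were compared with young cardiac fibroblasts sequenced fresh from the heart. The comparison holds 5 of the series' 29 RNA-seq libraries, chosen by their sample titles: 2 of young cells on SoftY and 3 of fresh young cells. Fold changes are SoftY over fresh throughout. The study sequenced primary fibroblasts of young and of aged mouse hearts, fresh or cultured on DECIPHER substrates, which hold decellularised heart matrix inside a synthetic hydrogel. There were 4 substrates, SoftY, StiffY, SoftA and StiffA, and the names are read here as a soft or a stiff gel with the matrix of a young (Y) or an aged (A) heart, so that young cells on SoftY meet the substrate matched to their own heart. No genotype, agent, strain, sex or age in months is given in the sources used here for either group, and the culture time of 48 h is that of all 8 cultured groups.

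Cardiac fibroblasts secrete and remodel the collagen network of the heart and sense its stiffness through integrins, actin and the transcription cofactors YAP, TAZ and MRTF. Activated fibroblasts, called myofibroblasts, build smooth muscle actin fibres and deposit more collagen. Enzymatic isolation is itself a strong stimulus, after which cells are known to switch on immediate early, cytokine and stress genes.

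The 3 fresh libraries held 1987732 to 3275089 counts and the SoftY libraries 2277680 and 3080698, so that a gene at 10 CPM, the read count scaled to library size, rested on 21.3 to 34.6 counts. Mitochondrial transcripts took 0.448% to 0.666% of the counts. The labels call the libraries biological replicates without tying them to animals. A p-value here therefore reflects only how far libraries vary within groups, which may be technical. That spread is estimated over all 29 libraries of the series, most of them outside this comparison. Fresh libraries carry the letter A and SoftY libraries the letter E in their library names, and the effects of culture and of whatever that letter stands for cannot be told apart. The first library of each group shared a deviation. In 178 of the 9472 genes with a mean of at least 10 CPM, fresh replicate 1 lay at least 2-fold above both other fresh libraries, and in 173 of these (97.2%) SoftY replicate 1 also lay above replicate 2, against 50.2% of all 9472. Gata4, a cardiac transcription factor, was at 143.5, 29.2 and 29.1 CPM in the fresh libraries and at 125.7 and 51.7 on SoftY. Without both first libraries 2366 genes were called higher and 2235 lower, in place of the counts below.

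Of 13523 genes tested, 3129 (23.1%) were higher and 3124 (23.1%) lower on SoftY at an adjusted p under 0.05 in edgeR's quasi-likelihood test, 46.2% in all. The change exceeded 2-fold in 1794 genes that rose and 1605 that fell, and 8-fold in 321 and 153. Over all genes tested the median log2 fold change was -0.0002, which is the value to set beside each list median below. The even split and this median depended on scaling, since library totals alone gave 2755 higher and 3572 lower and a median of -0.094. The 23.1% called in each direction is likewise the share to set beside each list count of SoftY over fresh. Both SoftY libraries lay above all 3 fresh libraries in 4214 genes (31.2%) and below them in 4278 (31.6%). Set against the same 3 fresh libraries, young cells gave 2963 genes higher and 3205 lower on StiffY, 3183 and 3221 on SoftA, and 3175 and 3364 on StiffA.

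**Figure D1:**
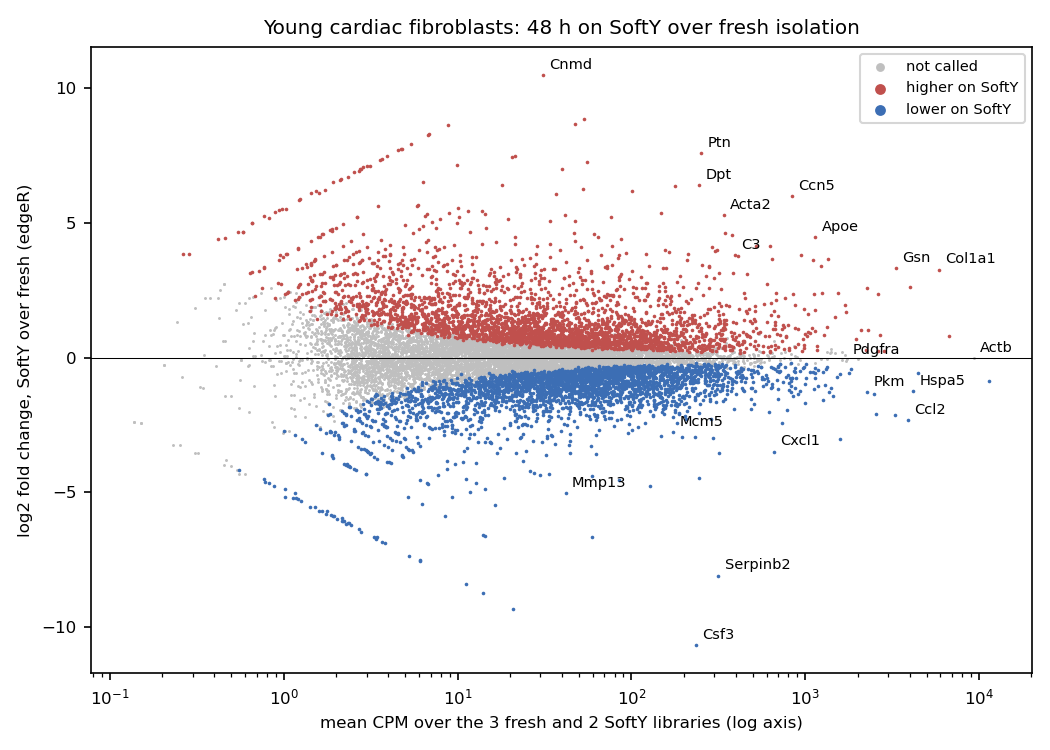
Log2 fold change of young cells on SoftY over fresh young cells (vertical axis) against the mean CPM of the 5 libraries (horizontal log axis), 1 point per gene tested, red or blue where edgeR called it higher or lower. Col1a1, Ccn5, Gsn and Apoe stand high, Csf3 and Serpinb2 lie far below 0, and Actb and Pdgfra lie near 0; rows of points at low CPM are genes with 0 counts in a group.

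Among the genes that rose was Cnmd, chondromodulin, an inhibitor of vessel growth found in cartilage and heart valves. It had 0 counts in the 3 fresh libraries and lay at 81.83 and 73.43 CPM on SoftY, which is at least 222-fold higher when the fresh group is set at a floor of 3 counts over the group. Bmp3, a secreted member of the BMP family, had 2 counts in fresh cells and stood at 134.3 and 132.5 CPM on SoftY, a ratio of 567 with a 95% interval of 156 to 4690 for counting error. Ptn, the heparin-binding growth factor pleiotrophin, lay at 3.10, 2.60 and 4.23 CPM in fresh cells and at 636.8 and 612.6 on SoftY (log2 fold change 7.59 ± 0.15 SE, adjusted p = 1.48e-26). Atp1b2, a sodium pump subunit, Scel (sciellin) and the actin-associated protein Pdlim3 rose by 7.28 ± 0.30, 7.01 ± 0.28 and 6.24 ± 0.39 on the log2 scale. Atp1b2 lay at 0.34, 0.29 and 2.35 CPM in fresh cells against 147.5 and 126.4, and its change was 8.57 without fresh replicate 3. Scel lay at 1.38, 0 and 0.94 CPM against 90.41 and 107.3 (6.31 without fresh replicate 2, 7.93 without replicate 1), and Pdlim3 at 2.75, 0.87 and 1.41 against 108.2 and 151.2 (6.87 without fresh replicate 1). Fresh levels this low rest on few counts. Ecrg4 and the amine oxidase gene Aoc3 had 2 counts each in fresh cells and were 219-fold (60.1 to 1820) and 212-fold (58.1 to 1760) higher on SoftY.

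Among the genes that fell was Csf3. It encodes the neutrophil growth factor G-CSF and went from 432.5, 385.5 and 352.8 CPM in fresh cells to 0.33 and 0 on SoftY, where 1 read was counted, so that fresh cells were 2100-fold higher with a counting interval of 376 to 82900. Serpinb2, an inhibitor of plasminogen activation, went from 518.8, 502.2 and 558.6 CPM to 0.99 and 3.04 (-8.09 ± 0.26, -7.40 without SoftY replicate 1 and -8.94 without replicate 2). Mmp10, a matrix protease, the alarmin receptor gene Il1rl1 and the enkephalin precursor Penk had 0 counts on SoftY, and were at least 61.7-fold, 41.2-fold and 32.8-fold lower there than in fresh cells. Msr1, a scavenger receptor, and Akr1c18, a steroid dehydrogenase, kept 1 count each.

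The labelled cell type was checked against 28 genes of resident cardiac fibroblasts, of which 27 were tested. The defining gene Pdgfra, a PDGF receptor, stood at 1655, 1779 and 1892 CPM in fresh cells and at 1762 and 1524 on SoftY, and the groups overlapped (-0.11 ± 0.10, adjusted p = 0.362). Tcf21, the transcription factor of the lineage, rose from 39.57, 31.48 and 27.72 CPM to 97.67 and 163.8 (1.97 ± 0.20, adjusted p = 1.46e-09). Gsn (gelsolin, an actin-severing protein) rose from 682.2, 728 and 753.6 CPM to 7364 and 7134, and Dpt (dermatopontin, a matrix organiser) from 6.88, 9.24 and 4.23 CPM to 572.8 and 633.5. Both SoftY libraries lay well above every fresh library for these 3 genes, and above them in 31.2% of all genes tested. In all 16 of the 27 rose, 2 fell (Cd34, -0.89, and the matricellular gene Smoc2), and the median was 0.59. Vim, the intermediate filament vimentin, was not called (-0.14 ± 0.11, adjusted p = 0.304).

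Myeloid markers summed to 234.9 to 235.9 CPM in the fresh libraries and to 56.9 and 61.0 on SoftY, and 7 of 11 tested fell. Of the defining myeloid genes, the CSF1 receptor gene Csf1r went from 172 counts to 3 and C1qb from 30 to 0. Markers of neutrophils summed to 43.7 to 46.0 CPM in fresh cells and to 8.58 and 9.56 on SoftY, with S100a9, Ly6g and Cxcr2 at 0 counts in all 5 libraries. Endothelial markers gave 541.9 to 553.4 CPM against 637 and 657.3, where 6 of 15 fell, among them the junction gene Cdh5, and 2 rose (6 became 3 without SoftY replicate 2). The sum of the endothelial markers was thus higher on SoftY, while their median log2 fold change was -0.886. Markers of pericytes and mural cells gave 30.3 to 40.9 CPM against 90.1 and 95.6, with 3 of 6 higher. The pericyte genes Kcnj8, Abcc9 and Cspg4 were too low to test, at 5, 13 and 4 counts in fresh cells. On SoftY they had 3, 12 and 4 counts, and Higd1b and Vtn had 0 in both groups. Of the cardiomyocyte markers Myh7, Myl2, Nppa and Mb were at 0 counts in both groups, while Tnnt2 (4.77) and Myl4 (1.26) rose. The Myl4 call was lost without SoftY replicate 1 (0.68, adjusted p = 0.164 in edgeR) and without both first libraries (0.58, adjusted p = 0.29). In bulk RNA, fewer cells of a type and less RNA per cell cannot be told apart.

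**Figure D2:**
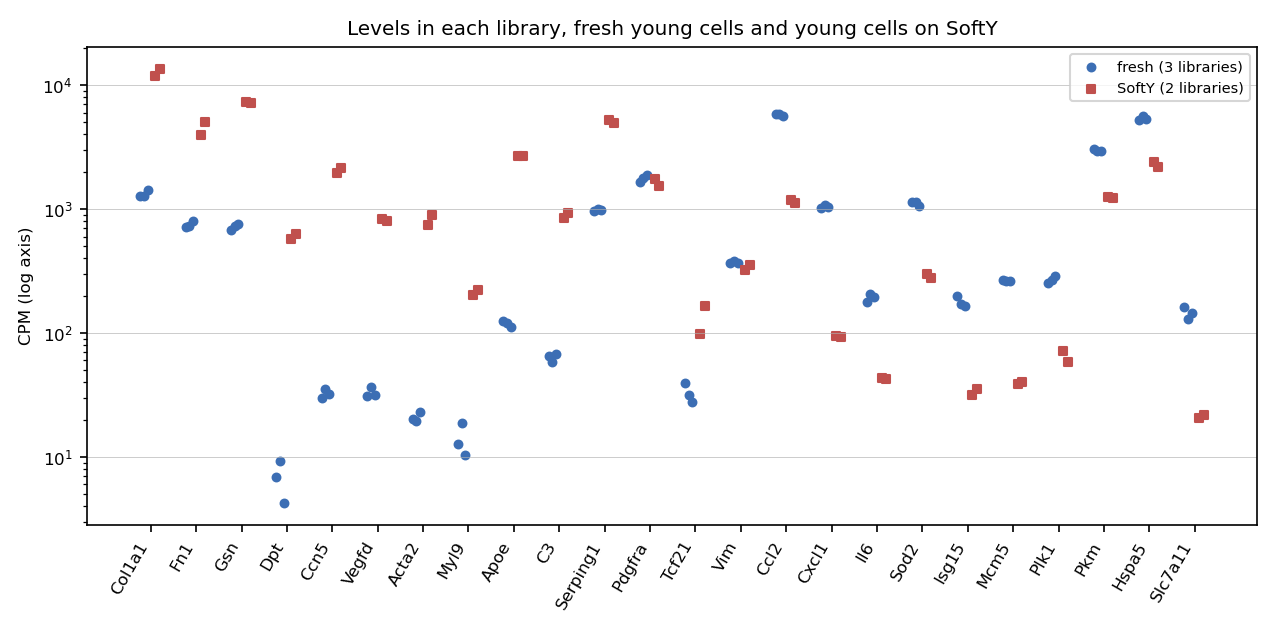
CPM on a log axis of 24 genes in each of the 3 fresh young libraries (blue circles) and the 2 SoftY libraries (red squares). The groups overlap for Pdgfra and nearly touch for Vim, whereas for Col1a1, Ccn5, Acta2 and Apoe both SoftY libraries lie far above, and for Cxcl1, Mcm5 and Slc7a11 far below, the fresh ones.

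All 8 fibrillar collagens tested rose (median 2.46), and their summed level went from 3579, 3861 and 3956 CPM in fresh cells to 24240 and 27090 on SoftY. Col1a1, the main chain of type I collagen (chromosome 11, 94827050 to 94843869 on mm39), stood at 1286, 1278 and 1416 CPM in fresh cells and at 11900 and 13570 on SoftY (3.26 ± 0.08, adjusted p = 6.34e-25). Col11a1, which nucleates fibrils, rose from 4.13, 4.62 and 6.11 CPM to 162.7 and 202.9 (5.22 ± 0.16). Fibril-associated, beaded and network collagens rose in 8 of 10, with Col28a1 at 2 counts in the fresh group and at 110.2 and 124.7 CPM on SoftY. Col7a1 and Col8a2 of that list, both near 0 to 3 CPM, were not called.

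Enzymes that mature and link collagen rose in 22 of 29 and fell in 2 (median 0.81). Lox, the lysyl oxidase that crosslinks collagen and elastin, rose from 68.12, 63.24 and 70.47 CPM to 832.8 and 1026 (3.79 ± 0.15). Pcolce, which helps to cut the procollagen end, rose from 282.8, 279.8 and 290.3 CPM to 1073 and 1263. By contrast P4ha2, a prolyl hydroxylase, was at 332.7, 348 and 357.5 CPM in fresh cells and at 333.9 and 295 on SoftY, and was not called (-0.14 ± 0.11), while its paralogue P4ha1 rose by 1.28 ± 0.14.

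Elastic fibre genes rose in 15 of 17. Mfap4, a microfibril protein, went from 7.23, 3.18 and 5.64 CPM to 379.8 and 497.1 (6.38 ± 0.24), and Fbln5, which seeds elastin assembly, from 26.84, 24.84 and 22.08 to 362 and 388.4 (3.92 ± 0.11). Emilin2 and Ltbp1 were the 2 that fell. In the basement membrane list 16 of 21 rose and 2, the kidney-type chains Col4a3 and Col4a4, fell. Its member Col15a1 rose from 4.82, 3.75 and 8.93 CPM to 95.36 and 81.68.

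Matricellular proteins, which signal to cells rather than bear load, rose in 15 of 21 and fell in 4. Ccn5, a CCN family protein that lacks the C-terminal domain of its relatives, rose from 29.93, 35.23 and 31.95 CPM to 1970 and 2136 (5.98 ± 0.12, adjusted p = 1.48e-26). Fibronectin (Fn1) rose from 712.9, 734.4 and 807.1 CPM to 3996 and 5023. Periostin (Postn), a marker of activated fibroblasts, rose from 8.26, 5.49 and 7.52 CPM to 45.86 and 49.97 (2.77 ± 0.26). Tenascin C (Tnc) and osteopontin (Spp1), both typical of injured heart, fell by 1.14 ± 0.09 and 3.53 ± 0.25 on the log2 scale, with Spp1 at 541.2, 466.1 and 504.1 CPM in fresh cells against 36.63 and 51.27. Proteoglycan genes rose in 12 of 22, such as fibromodulin (Fmod, 6.05 ± 0.27) and the hyaluronidase Cemip (4.12 ± 0.12). They fell in 6, near the 23.1% lower over all genes tested, such as versican (Vcan, -1.90 ± 0.18).

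Matrix proteases rose in 12 of 24 and fell in 6, the latter near the 23.1% lower over all genes tested. Mmp2, the gelatinase of resting fibroblasts, rose from 180.6, 176.4 and 204.8 CPM to 1196 and 1269 (2.72 ± 0.10). Mmp13, the fibroblast collagenase, fell from 69.84, 65.84 and 70 CPM to 1.98 and 2.17 (-5.01 ± 0.34), and Mmp10 as given above. Timp3, an inhibitor that stays bound to the matrix, rose from 41.63, 42.16 and 48.86 CPM to 620.3 and 756 (3.97 ± 0.13).

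Contractile genes of smooth muscle and myofibroblasts rose in 13 of 19, with none lower and a median of 1.46. Acta2, smooth muscle actin and the usual mark of a myofibroblast (chromosome 19, 34218490 to 34232991 on mm39), went from 20.3, 19.64 and 23.02 CPM in fresh cells to 737.5 and 897.7 on SoftY (5.29 ± 0.16, adjusted p = 6.22e-22). Myl9, the regulatory myosin light chain, went from 12.73, 18.77 and 10.34 CPM to 202.3 and 223.3 (3.88 ± 0.21), and Lmod1 (leiomodin) from 0.34, 2.02 and 0.94 to 32.67 and 36.93 (4.83, and 5.73 without fresh replicate 2). Cnn1, calponin, had 0 counts in fresh cells and 40 on SoftY, at least 21.2-fold higher. SoftY lay above fresh without overlap for these 4 genes, as it did for 31.2% of all genes tested. The more general actin genes Tpm4, Cald1 and, of the cytoskeleton list, Actb were not called, the last at 9077 to 9813 CPM in fresh cells and 10170 and 8396 on SoftY.

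Serum response factor (SRF), which MRTF switches on when actin polymerises, binds the CArG box, and SRF and MRTF targets rose in 18 of 22 with 1 lower, Srf itself (-1.27 ± 0.37). A CArG box stood in the 250 bases upstream of the start of 2 of the 17 contractile genes with a promoter in the RefSeq table (11.8%), Cnn2 and Myl9, on either strand, against 128 of 9488 tested genes (1.3%). The stretch from 216 to 97 bases before the start of Myl9 on GRCm38.p6 (chr2:156775248-156775367, plus strand, RefSeq) is shown because it holds the box, in capitals, of a gene that rose.
Myl9: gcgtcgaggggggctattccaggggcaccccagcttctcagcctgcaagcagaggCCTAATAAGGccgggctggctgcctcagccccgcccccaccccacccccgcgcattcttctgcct
YAP and TAZ targets rose in 15 of 23 and fell in 1. Ccn2, the classic YAP target CTGF, rose from 10.67, 20.22 and 12.21 CPM to 56.09 and 56.05 (1.93 ± 0.21), and Ccn1 from 881.1 to 917 CPM to 1922 and 2067 (1.15 ± 0.09). Of the integrins 8 of 16 rose and 4 fell, the latter near the 23.1% lower over all genes tested. Itga8 was at 2.89 to 6.54 CPM in fresh cells and at 105.6 and 115.1 on SoftY.

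Secreted signals changed in several families. Insulin-like growth factor genes rose in 9 of 12: Igf1 went from 8.95, 9.24 and 11.28 CPM to 213.2 and 194.7 (4.39 ± 0.15), and its binding protein gene Igfbp4 from 31.95 to 37.16 CPM to 333.9 and 359.3. Vegfd, a lymphatic growth factor, rose from 30.96, 36.39 and 31.48 CPM to 833.8 and 794.7 (4.62 ± 0.09, adjusted p = 6.22e-27), and Pdgfd from 5.20 to 7.23 CPM to 140.6 and 147.7. In the list of Wnt inhibitors, receptors and targets 14 of 19 tested rose with none lower. With a mean of at least 10 CPM required, 8 rose, but that setting leaves genes below this level out of the test. The ligand genes Wnt2, Wnt4 and Wnt11 and the pathway genes Axin2, Lef1 and Tcf7 were not tested. They had at most 10 counts in either group. The secreted Wnt inhibitor Sfrp1 rose from 165.8, 144.1 and 154.1 CPM to 2138 and 2146 (3.79 ± 0.12). TGF-beta genes rose in 15 of 28 and fell in 5 (3 without fresh replicate 1), with the ligands Tgfb2 (1.86 ± 0.15) and Tgfb3 (2.39 ± 0.14) higher. BMP genes rose in 7 of 20, among them Bmp4 (2.48 ± 0.15), and Id2, a target of BMP signals, fell from 255.3 to 271.8 CPM to 124.7 and 186 (-0.76 ± 0.15, not called without both first libraries).

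**Figure D3:**
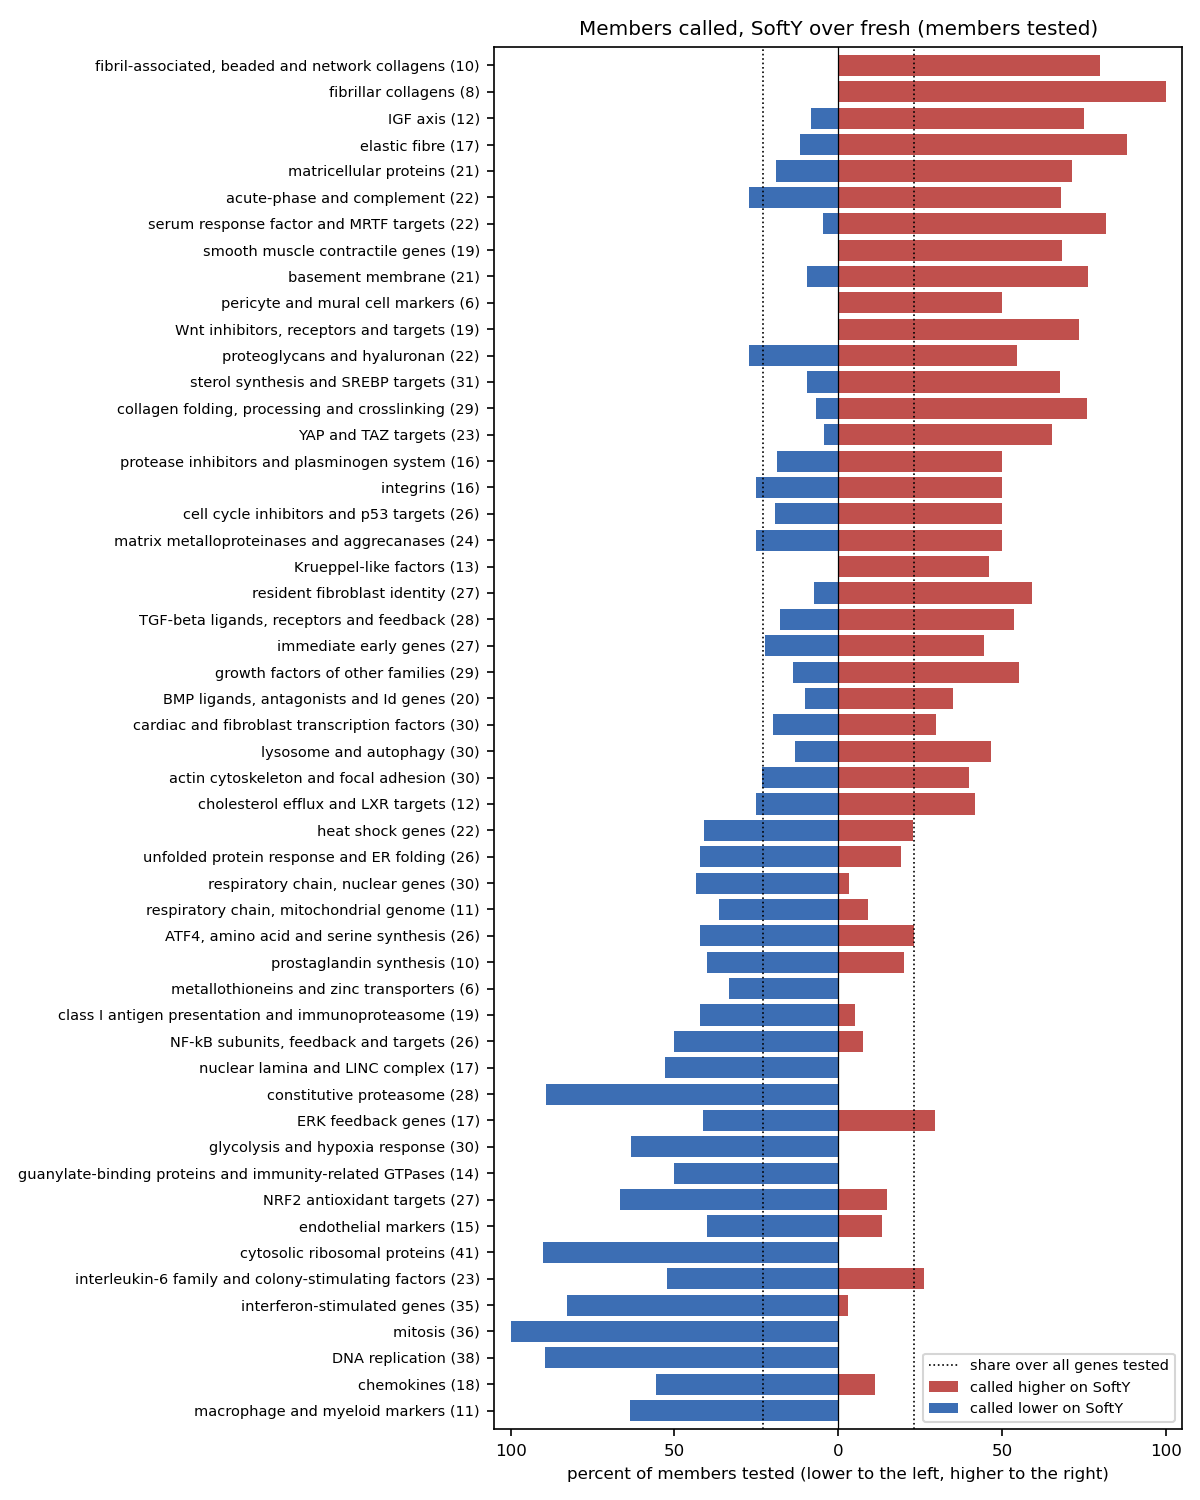
Percent of the tested members of each gene list called higher (red, to the right) or lower (blue, to the left) on SoftY, with members tested in brackets, at least 6 in each list shown, and lists in order of their median log2 fold change. Dotted lines mark the 23.1% called in each direction over all genes tested. All 8 fibrillar collagens were higher and all 36 mitosis genes lower.

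Chemokines, the attractants of leukocytes, fell in 10 of 18 and rose in 2 (median -2.10), and their summed level went from 15820 to 16250 CPM to 4389 and 4693. Ccl2, which draws monocytes, fell from 5804, 5831 and 5646 CPM to 1191 and 1112 (-2.32 ± 0.08, adjusted p = 2.28e-21). Cxcl1, a neutrophil attractant, fell from 1027, 1073 and 1030 CPM to 93.71 and 92.11 (-3.49 ± 0.15), and Cxcl3 from 228 counts to 3, a ratio of 47.7 with a counting interval of 16.1 to 233. The 2 that rose were Cxcl12 (1.16 ± 0.10), a homeostatic chemokine of stromal cells, and Cx3cl1, which went from 5.49 to 8.46 CPM to 56.42 and 73.86 (3.25 ± 0.23). Ccl8 was not called, at 17.89 to 21.61 CPM against 20.46 and 19.55.

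In the interleukin-6 and colony-stimulating factor list 12 of 23 fell and 6 rose, the latter near the 23.1% higher over all genes tested. Il6 fell from 178.6, 207.1 and 195.9 CPM to 43.22 and 42.58 (-2.17 ± 0.17, adjusted p = 2.62e-12), and Lif, its relative, from 33.79 to 39.93 CPM to 9.90 and 2.61 (-2.50, from -1.89 without SoftY replicate 2 to -3.81 without replicate 1). Among the 6 that rose were the receptor genes Il6st (0.83 ± 0.07), Il11ra1 (1.80 ± 0.11), Lifr, Osmr and Il1r1. NF-kB genes fell in 13 of 26 and rose in 2 (8 fell without both first libraries), with Sod2, the mitochondrial superoxide dismutase, at 1138, 1134 and 1066 CPM in fresh cells and 298 and 280.2 on SoftY, and Nfkbia, the inhibitor that NF-kB itself induces, at 209.4 to 220.3 against 58.4 and 57.35. Rela, a subunit, was at 127.3, 44.18 and 40.87 CPM against 145.8 and 77.34, with the first library highest in both groups, and was not called, but it was called higher with the replicate block by library-name numbers (0.75, adjusted p = 0.00215 in edgeR) and without fresh replicate 1 (1.43, adjusted p = 0.00562). An NF-kB site stood within 250 bases upstream, on either strand, in 5 of 11 chemokine genes (45.5%) and 11 of 21 genes of the NF-kB list (52.4%), against 1007 of 9488 tested genes (10.6%). The Cxcl3 stretch on GRCm38.p6 (chr5:90785974-90786093, plus strand, 127 to 8 bases before the start, RefSeq) is shown for the chemokine with a site and the largest fall, and the capitals cover 2 overlapping matches on opposite strands.
Cxcl3: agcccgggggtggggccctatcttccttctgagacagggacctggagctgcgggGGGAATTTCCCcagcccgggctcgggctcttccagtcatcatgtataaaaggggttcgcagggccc

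Complement and acute-phase genes rose in 15 of 22 (median 1.71) and fell in 6, the latter near the 23.1% lower over all genes tested. C3, the central complement protein, went from 64.68, 58.34 and 68.12 CPM to 850.3 and 926.3 (3.81 ± 0.09, adjusted p = 2.84e-24). Serping1, the C1 inhibitor, went from 958.9, 992.3 and 986.1 CPM to 5232 and 4917. Both complement genes separated the groups in every library, as did 31.2% of all genes tested with SoftY above. Among the 6 that fell were the acute-phase genes Lcn2 (-1.97 ± 0.24) and Ptx3 and the receptor gene C3ar1, and Saa3 was not called (0.46 ± 0.28).

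Interferon-stimulated genes, the antiviral set that interferons switch on, fell in 29 of 35 and rose in 1, the RNase gene Isg20 (0.55), a call lost without fresh replicate 1 or 3 or SoftY replicate 2. Their summed level went from 4194 to 4205 CPM to 1798 and 1912. Isg15, a ubiquitin-like modifier, fell from 199.9, 170.1 and 164.4 CPM to 31.68 and 35.63 (-2.41 ± 0.23), Irf7 from 310, 293.7 and 288.9 to 73.91 and 77.77 (-1.97 ± 0.15), and the nucleic acid sensor Zbp1 from 153.4, 158.5 and 143.3 to 21.78 and 25.64 (-2.69 ± 0.23). Both SoftY libraries lay below all fresh libraries in 33 of the 35, against 31.6% of all genes tested. Guanylate-binding proteins fell in 7 of 14 and class I presentation genes in 8 of 19 (4 to 6 when any 1 of the 5 libraries was left out), while the class I heavy chain gene H2-D1 was not called (-0.04 ± 0.13). The core of the interferon-stimulated response element, GAAANNGAA, stood upstream on either strand in 13 of 26 genes of the list (50%) and in 719 of 9488 tested genes (7.6%). The Oas3 stretch on GRCm38.p6 (chr5:120777665-120777784, minus strand, 125 to 6 bases before the start, RefSeq) is shown with 2 overlapping matches in capitals; Oas3, a double-stranded RNA sensor, had 33 counts in fresh cells and 1 on SoftY.
Oas3: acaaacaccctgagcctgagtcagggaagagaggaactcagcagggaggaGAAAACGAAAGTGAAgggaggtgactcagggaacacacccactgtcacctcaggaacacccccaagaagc

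Genes of cell division fell without exception in the mitosis list, 36 of 36, with a median of -1.59. Plk1, the mitotic kinase, fell from 254.3, 268.6 and 286.6 CPM to 71.93 and 58.22 (-2.04 ± 0.14, adjusted p = 3.94e-13), Ccnb1 (cyclin B1) from 217.2 to 225 CPM to 65.99 and 54.75, and Top2a, the topoisomerase that untangles chromosomes, from 241.1 to 274.8 to 66.98 and 79.51. DNA replication genes fell in 34 of 38 (median -1.89). Mcm5, a subunit of the replicative helicase, fell from 267.3, 261.4 and 264.5 CPM to 38.61 and 39.97 (-2.75 ± 0.15), and Rrm2, which makes deoxynucleotides, from 1027, 1172 and 1083 to 200.9 and 207.7. The summed mitosis level was 4536 to 4686 CPM in fresh cells and 1522 and 1546 on SoftY, and no library of a group came near the other group.

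The cell cycle homology region TTTGAA stood in the 250 bases upstream, on either strand, in 10 of 31 mitosis genes (32.3%) and in 1207 of 9488 tested genes (12.7%). An E2F site, TTTNGCGC, stood in 5 of 30 replication genes (16.7%) and 226 of 9488 (2.4%). A stretch of each kind on GRCm38.p6 from RefSeq is shown because nearly all members of these lists fell, with the motif in capitals: Top2a at chr11:99024190-99024309, minus strand, 120 to 1 bases before the start, with the match on the opposite strand, and Mcm5 at chr8:75109304-75109423, plus strand, 205 to 86 bases before the start, with overlapping matches on both strands.
Top2a: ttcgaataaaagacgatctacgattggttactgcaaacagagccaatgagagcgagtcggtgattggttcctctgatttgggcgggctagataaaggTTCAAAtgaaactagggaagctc
Mcm5: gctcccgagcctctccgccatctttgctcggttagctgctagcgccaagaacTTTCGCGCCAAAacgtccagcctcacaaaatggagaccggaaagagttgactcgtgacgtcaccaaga

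Cell cycle inhibitors and p53 targets rose in 13 of 26 and fell in 5, the latter near the 23.1% lower over all genes tested. Cdkn1a (p21) rose from 110.1, 136.6 and 121.2 CPM to 279.5 and 251.6 (1.11 ± 0.11, adjusted p = 1.56e-09) and the cyclin G gene Ccng1 from 108.7 to 122.6 CPM to 239.9 and 311.5. Cdkn2a, the p16 and ARF locus, had 7 counts in fresh cells and 22 on SoftY. Plk2 was among those that fell, from 1057, 1172 and 1162 CPM to 479.1 and 368.

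Immediate early genes, which answer stimuli within minutes, rose in 12 of 27 and fell in 6, the latter near the 23.1% lower over all genes tested. Egr1 rose from 192, 180.2 and 182.3 CPM to 728.9 and 967.2 (2.20 ± 0.18), Egr2 from 15.83, 23.1 and 21.14 to 127 and 108.2, and the orphan receptor gene Nr4a1 from 40.6, 36.39 and 33.36 to 245.8 and 252.4 (2.75 ± 0.17, adjusted p = 1.28e-14). Fosl1 fell by 2.00 on the log2 scale. Ier2 was at 202 to 368.1 CPM against 472.5 and 235.1, a spread within each group as wide as the gap between them. ERK feedback genes showed both directions, 5 of 17 higher and 7 lower (4 lower without both first libraries), with the phosphatase gene Dusp6 at 72.2 to 82.68 CPM in fresh cells and 34.32 and 31.28 on SoftY.

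Sterol synthesis and SREBP targets rose in 21 of 31 and fell in 3. Hmgcs1, at the entry of the mevalonate pathway, rose from 32, 28.01 and 37.58 CPM to 102 and 119.9 (1.78 ± 0.13, adjusted p = 7.98e-13), and Sqle (squalene epoxidase) from 71.91 to 79.4 CPM to 228 and 216.4. The 3 that fell were the sterol isomerase gene Ebp and the fatty acid synthesis genes Fasn and Acaca. Apoe, the lipid carrier, rose from 125.9, 121.3 and 111.3 CPM to 2666 and 2681 (4.48 ± 0.11, adjusted p = 1.68e-24), and Soat1, which esterifies cholesterol, fell by 1.13 ± 0.15. The sterol regulatory element core TCACNCCAC stood upstream on either strand in 1 of 22 genes of the list (4.5%), Hmgcs1, and in 118 of 9488 tested genes (1.2%). Its stretch on GRCm38.p6 (chr13:119690158-119690277, plus strand, 193 to 74 bases before the start, RefSeq) follows with the core in capitals.
Hmgcs1: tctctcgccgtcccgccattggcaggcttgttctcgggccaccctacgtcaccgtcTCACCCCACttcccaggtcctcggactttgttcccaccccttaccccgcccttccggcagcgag

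Glycolysis and hypoxia genes fell in 19 of 30 with none higher (median -0.64). Pkm, pyruvate kinase, went from 3034, 2954 and 2917 CPM to 1242 and 1227 (-1.27 ± 0.07), and the lactate exporter gene Slc16a3 from 240.8 to 290.2 CPM to 42.24 and 60.39 (-2.42 ± 0.16). Hk1, the constitutive hexokinase, was not called (-0.15 ± 0.12). Nuclear genes of the respiratory chain fell in 13 of 30. Of 11 genes of the mitochondrial genome 4 fell and 1, mt-Nd4, rose (median -0.303). The calls of mt-Nd2 and mt-Nd5, both lower, were lost without fresh replicate 3, and that of mt-Nd4 with counts thinned to the smallest library. The uncalled mt-Cytb was at 1886 to 2133 CPM against 1751 and 2211 (-0.04 ± 0.08). Ribosomal protein genes fell in 37 of 41 (median -0.995), such as Rpl4 from 905.3 to 935.5 CPM to 476.5 and 501, although genes of this family have near-identical copies that counting can split. Constitutive proteasome genes fell in 25 of 28, and in 16 without both first libraries.

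Stress programmes were lower in part. Unfolded protein response genes fell in 11 of 26 and rose in 5, a count of 3 without SoftY replicate 1 or fresh replicate 2 and of 2 without SoftY replicate 2. The 5 of 26 that rose are near the 23.1% higher over all genes tested. The chaperone gene Hspa5 (BiP) fell from 5217, 5688 and 5379 CPM to 2390 and 2205 (-1.24 ± 0.07). NRF2 antioxidant genes fell in 18 of 27 and rose in 4, with the cystine importer Slc7a11 at 162.4, 130.5 and 145.2 CPM in fresh cells and 20.46 and 21.72 on SoftY (-2.79 ± 0.21) and the glutathione transferase Gstm1 in the other direction (2.30 ± 0.29). Gclm, at 171.7, 47.94 and 41.34 CPM against 87.77 and 42.15, was not called, though it was with the replicate block by title numbers (-0.63, adjusted p = 0.0357 in edgeR), and again its first libraries were highest. Serine and folate-cycle enzymes of the ATF4 list fell, such as Shmt2 (-1.76 ± 0.13) and Psat1 (-1.80 ± 0.15), within 11 of 26 lower (7 without SoftY replicate 1). Heat shock genes fell in 9 of 22 and rose in 5, the latter near the 23.1% higher over all genes tested. Hspd1 fell (-1.66), whereas Cryab, a small chaperone of heart muscle, rose from 100.5 to 121.1 CPM to 690.6 and 620 (2.57 ± 0.10). Metallothionein Mt1 fell from 401.2, 338.2 and 327.4 CPM to 36.96 and 55.62. Lysosome and autophagy genes rose in 14 of 30, such as the protease Ctsd (1.3 ± 0.09), and 4 fell. Of the nuclear lamina list 9 of 17 fell, with Lmnb1 (lamin B1) at 98.19 to 164.5 CPM against 28.71 and 24.33. Lmna, which scales with tissue stiffness, was at 586.3 to 661 against 591.3 and 649.1 (0.01 ± 0.07).

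SoftY was then set against the other 3 substrates in young cells, a difference from which the fresh libraries cancel. It gave 466 genes higher (3.45%) and 429 lower (3.17%), 6.62% of those tested, with a median of 0.01 over all genes. These counts rest on both SoftY libraries, since without replicate 1 there were 219 and 127 and without replicate 2 there were 254 and 217. Enpp2, autotaxin, which makes lysophosphatidic acid, was among those higher (chromosome 15, 54702297 to 54816289 on mm39). It was at 316.8 and 298.9 CPM on SoftY, at 12.11, 14.51 and 14.97 on StiffY, at 35.49, 30.07 and 32.34 on SoftA, and at 49.09, 48.9 and 38.09 on StiffA (3.50 ± 0.12, adjusted p = 4.8e-19). In fresh cells it lay at 89.11, 86.64 and 99.6 CPM, so that it was above fresh on SoftY and below fresh on the other substrates. Col15a1, a basement membrane collagen, was at 95.36 and 81.68 CPM on SoftY and at 5.49 to 17.71 in the 9 libraries of the other substrates (3.01 ± 0.17). Cnmd (2.48 ± 0.19) and Atp1b2 (2.15 ± 0.15) were also higher on SoftY.

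Resident fibroblast genes were higher on SoftY in 11 of 27 and lower in 2, and the count of 11 held when any library of this comparison was left out. Pdgfra, whose SoftY and fresh libraries overlapped, was at 756.8 to 1042 CPM in the 9 libraries of the other substrates, below both SoftY libraries (0.88 ± 0.08, adjusted p = 1.66e-09). Gsn was at 7364 and 7134 CPM on SoftY and at 2836 to 4499 elsewhere (0.98 ± 0.07), and Dpt at 572.8 and 633.5 against 275.3 to 467.8. Complement and acute-phase genes were higher in 13 of 22 with none lower (10 to 13 over libraries left out): C3 (0.86 ± 0.07), Steap4 (2.06 ± 0.12), Serpina3f, whose family has near-identical copies (2.06 ± 0.16), and Saa3, at 73.25 and 56.48 CPM against 4.16 to 36.97 (2.63 ± 0.25). Chemokines were higher in 8 of 18 (5 without SoftY replicate 2), with Ccl2 at 1191 and 1112 CPM against 459.3 to 744.5. Apoe was at 2666 and 2681 CPM against 843.8 to 1191 (1.52 ± 0.08). Matrix proteases were higher in 9 of 24, among them Mmp2 (0.72).

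**Figure D4:**
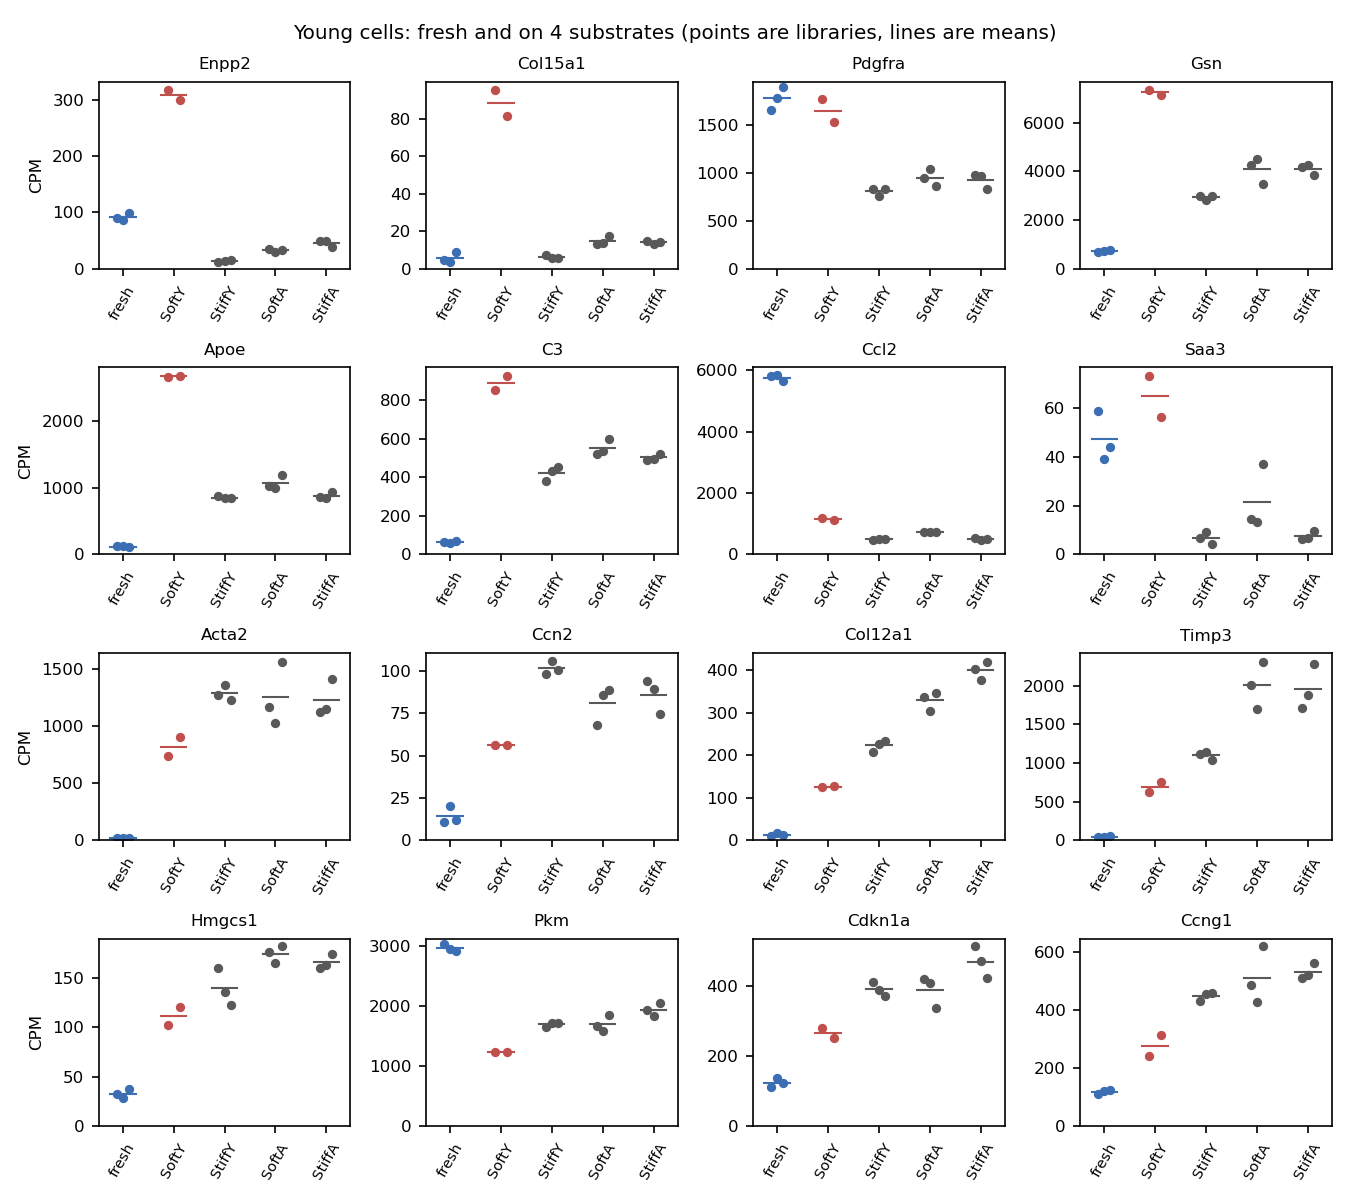
CPM of 16 genes in young cells, fresh (blue) and on SoftY (red), StiffY, SoftA and StiffA (grey), with 1 point per library and a line at each group mean. Enpp2, Col15a1, Apoe and Ccl2 are higher on SoftY than in every library of the other substrates, while Col12a1, Timp3, Cdkn1a and Pkm are lower than in every one of them.

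Members of the contractile, sterol, p53 and glycolysis lists were lower on SoftY than on the other substrates. Acta2, at 737.5 and 897.7 CPM, was at 1229 to 1354 on StiffY, 1024 to 1559 on SoftA and 1120 to 1406 on StiffA (-0.61 ± 0.12, adjusted p = 0.000954). Contractile genes were lower in 8 of 19 and higher in 1, Mylk, but 1 to 9 were lower over libraries left out, the low values without a SoftY library. YAP and TAZ targets were lower in 8 of 23, Ccn2 among them (-0.67 ± 0.16), and SRF and MRTF targets in 9 of 22, counts that fell to 2 and 0 without SoftY replicate 1. Matrix genes also lower were Col12a1, a collagen of tissues under tension, at 125.4 and 126.9 CPM against 207.9 to 419.8 (-1.29 ± 0.12, adjusted p = 9.99e-09), Timp3 (-1.24 ± 0.11) and Col11a1 (-0.95 ± 0.11). No such difference was called for Col1a1 (0.04) or Col3a1 (0.12).

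Targets of p53 were lower in 12 of 26 with none higher (8 to 14 over libraries left out), with Cdkn1a at 279.5 and 251.6 CPM against 335.8 to 513.8 (-0.64 ± 0.10) and Ccng1 at 239.9 and 311.5 against 425.2 to 618.4 (-0.84 ± 0.11). Sterol genes were lower in 17 of 31 and higher in 1, the desaturase gene Scd1 (1.08 ± 0.13), and 4 to 17 were lower over libraries left out. Hmgcs1, at 102 and 119.9 CPM, was at 122.3 to 181.7 elsewhere (-0.52 ± 0.10). Glycolysis genes were lower in 10 of 30 (2 without SoftY replicate 1), with Pkm at 1242 and 1227 CPM against 1578 to 2050 (-0.52 ± 0.06). The remaining low genes of the ranking, Npas3, Anks1b, Gal3st2, Zdhhc2, Cd28, Cnn1 and the antisense RNA Peak1os, lay under 7 CPM in at least 1 SoftY library, and each lost its call without at least 1 of the SoftY libraries. Cnn1, at 5.61 and 9.99 CPM on SoftY, differed by -1.31, and by -0.92 without SoftY replicate 1 (adjusted p = 0.287 in edgeR).

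The response to SoftY was also set against that of aged cells on the same substrate, 2 libraries against 3 and fresh 3 against 3, with no library in common. Where the value is positive, the change from fresh to SoftY was higher in young than in aged cells. It was called higher in 741 genes (5.48%) and lower in 797 (5.89%), 11.4% of those tested, and the split depended on scaling, since library totals alone gave 466 and 1431 and moved the median of all genes to -0.18. Aged cells on SoftY had 3711 genes higher and 3727 lower than fresh aged cells.

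Immediate early genes differed between ages in 22 of 27, all with a higher value in young cells (19 to 23 over libraries left out). Nr4a1 rose in young cells as given above, but fell in aged cells from 232.7, 233.5 and 192.1 CPM to 11.64, 9.31 and 7.47 (difference 7.28 ± 0.26, adjusted p = 3.83e-19). Egr1 went from 690.2 to 712.7 CPM in fresh aged cells to 134.9 to 176.8 on SoftY (4.34 ± 0.24). For both genes the young SoftY libraries were near the fresh aged level and the aged SoftY libraries at or below the fresh young level. The prostaglandin synthase gene Ptgs2 was at 23.05 to 26.57 CPM in fresh young cells against 15.51 and 14.77 on SoftY (-0.73 ± 0.27, a call lost without any 1 of 4 libraries), but at 403.2 to 475 CPM in fresh aged cells against 9.05 to 14.79.

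The change of NRF2 targets differed in 16 of 27, all with a higher value in young cells (14 to 17 over libraries left out). Slc7a11 was at 1352, 1359 and 1393 CPM in fresh aged cells and at 6.04, 15.34 and 11.2 in aged cells on SoftY, so that the fall was steeper there than in young cells (4.21 ± 0.31, adjusted p = 1.38e-11). The change of chemokines had a higher value in young cells in 9 of 18 and a lower one in 1. Cxcl1 was at 4949 to 4974 CPM in fresh aged cells against 29.58 to 33.2 in aged cells on SoftY (3.81 ± 0.19). Myeloid markers moved the same way, with 4 of 11 higher and none lower and a median of 2.02, against 1.78 for the chemokines, and their part in the result was not tested. The change of lysosomal genes differed in 14 of 30, all with a higher value in young cells, a count of 9 without fresh young replicate 2.

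The change from fresh to SoftY differed between ages in 35 of 36 mitosis genes, all with a lower value in young cells (34 to 35 over libraries left out). Plk1 was at 75.49, 69.1 and 60.64 CPM in fresh aged cells and at 61.65, 66.84 and 57.27 after SoftY, where the groups overlapped (-0.15 ± 0.13, adjusted p = 0.358), against 254.3 to 286.6 CPM in fresh young cells and 58.22 and 71.93 in young cells on SoftY. The change of replication genes had a lower value in young cells in 22 of 38. Mcm5 fell in aged cells too, from 104.3 to 142.4 CPM to 39.44 to 43.16.

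Among matrix genes, 4 of 8 fibrillar collagens differed, all with the smaller rise in young cells. Col1a1 was at 264.6, 262.7 and 242.5 CPM in fresh aged cells and at 9018, 8630 and 8995 on SoftY (-1.85 ± 0.10, adjusted p = 2.49e-14), so that young cells were higher both fresh and on SoftY. Postn (-2.29 ± 0.52) and Fn1 (-1.74 ± 0.14) differed likewise, starting from 0.41 to 1.97 and 247.7 to 302.2 CPM in fresh aged cells. Acta2 was at 17.84 to 26.38 CPM in fresh aged cells and at 680.2 to 715.5 on SoftY, and its response was not called different (0.33 ± 0.23, adjusted p = 0.416).

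**Figure D5:**
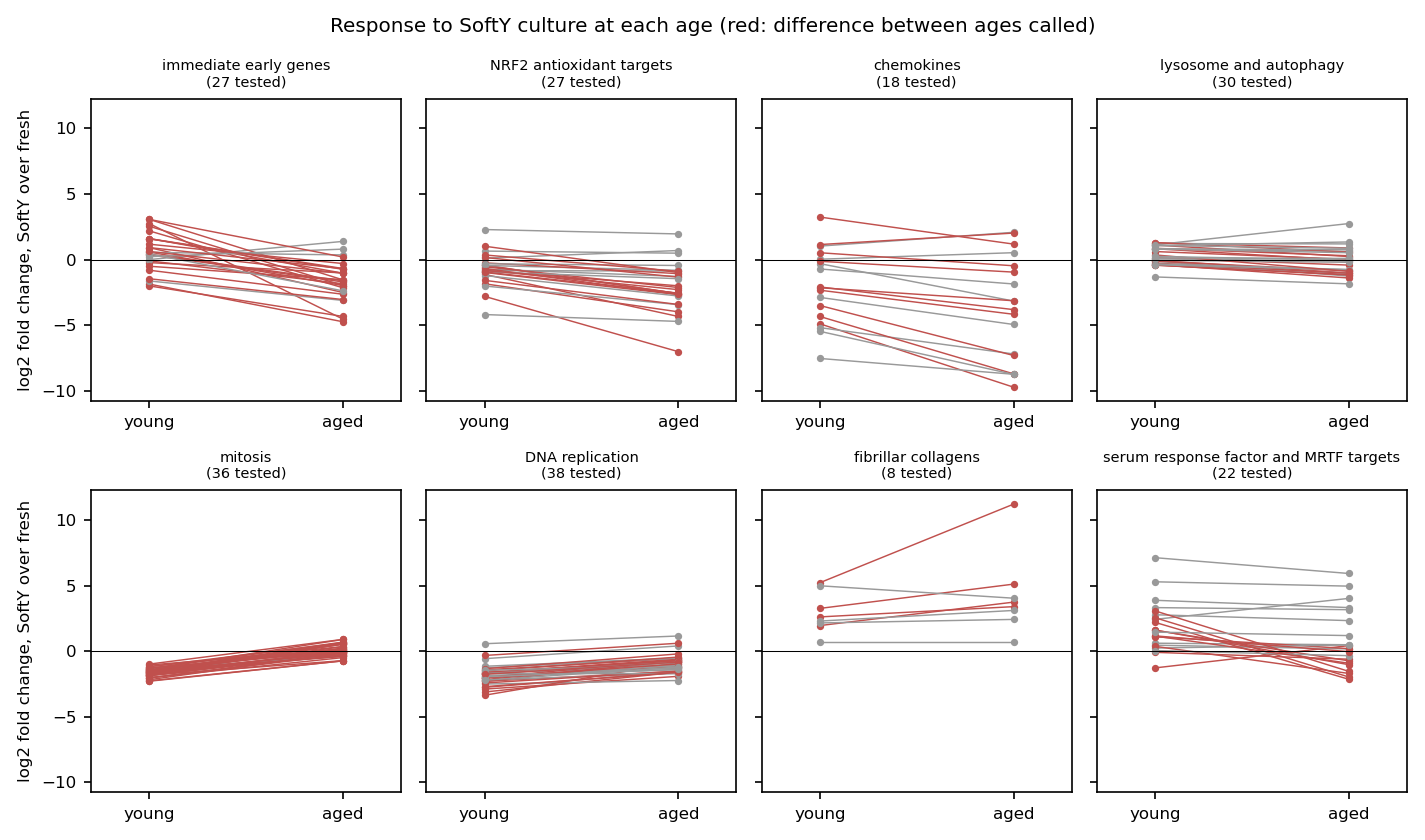
Log2 fold change of SoftY over fresh in young and in aged cells, 1 line per gene, for 8 gene lists, with red lines where edgeR called the difference between ages. The 22 immediate early genes and 16 NRF2 targets in red slope down from young to aged, and mitosis genes slope up from below 0 to around 0.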

How the data were processed

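RNA of primary mouse cardiac fibroblasts was extracted with TRIZOL and made into libraries with a low-input NEBNext kit, per the labels' protocols. The authors deposited a table of raw read counts for 55357 genes in 29 libraries, of which 1362 have no symbol. STAR 2.7.8a and mm39 are named in the submitters' processing notes. The deposited table is named as HTSeq gene counts. Which annotation and strand option were used is not stated in the material at hand.

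Counts were tested with edgeR 4.0.16 in R 4.3.3 (quasi-likelihood test, TMM factors, filterByExpr by group, 13523 genes, 10 groups in 1 fit), with Benjamini-Hochberg adjustment over all genes and calls at an adjusted p under 0.05. The fit uses all groups to share the estimate of spread, since SoftY has 2 libraries. An exact permutation test of 3 against 2 libraries cannot go below p = 0.1. CPM were computed on library totals scaled by the TMM factors. The pipeline was tested on simulated data. Other settings were RLE size factors in edgeR, the full fit and test of DESeq2 1.42.0, library totals alone and no filter. Further settings were a mean of at least 10 CPM, thinned counts, replicate blocks, the 5 libraries alone and each library left out.

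Named genes were the 12 largest called folds in each direction (8 for the substrate and age comparisons), up to 5 called members of each list with the smallest p, up to 2 uncalled members with the highest level, and 8 genes always named; other members given by name were chosen after their values were seen. The comparison, the gene lists and the tests were chosen with earlier results of these data known. Promoters are RefSeq sequences on GRCm38.p6 and carry no coordinates of the counts' build. Genes with near-identical copies, overlapping genes and antisense genes are uncertain. Some list members counted here are not reported by name.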

Additional observations from a re-analysis of the deposited data

Results flagged for a closer look

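The following genes differed between young and aged cells in the change from fresh to SoftY, by the interaction term of the edgeR fit, where a positive value is a higher change in young cells.

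Of the genes with a higher value in young cells, Nr4a1 (7.28 ± 0.26) and Egr2 (4.52 ± 0.23) rose in young and fell in aged cells. Egr2 was at 15.83 to 23.1 CPM in fresh young cells, 127 and 108.2 in young cells on SoftY, 90.56 to 114.1 in fresh aged cells and 24.07 to 30.61 in aged cells on SoftY. Mmp13 (6.90 ± 0.92) was lower on SoftY at both ages, from 2544 to 2625 CPM in fresh aged cells to 0, 2.19 and 0. Ptgs2 differed by 4.56 ± 0.37. Il1a (5.80 ± 1.72), Adgre1 (5.12 ± 1.501) and Ccl3 (4.83 ± 1.42) had 0 counts in all 3 aged SoftY libraries and C3ar1 (4.87 ± 1.08) in 2 of them, so that these fitted differences are no bounds. The calls of the first 3 were lost without any 1 of several libraries, down to 1.92 for Il1a without young SoftY replicate 1 (adjusted p = 1 in edgeR), 3.40 for Adgre1 without replicate 2 (adjusted p = 0.286) and 4.09 for Ccl3 without replicate 1 (adjusted p = 0.25). With counts thinned to the smallest library the C3ar1 call was lost too (4.51, adjusted p = 0.0984), and C3ar1 stood at 6.76 without aged SoftY replicate 1. Mmp13 stood at 10.48 without aged SoftY replicate 2. Adgre1, a macrophage marker, was at 46.1 to 50.74 CPM in fresh young and 34.26 to 48.11 in fresh aged cells, and at 0.66 and 4.35 in young cells on SoftY.

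Of the genes with a lower value in young cells, Col11a1 (-5.99 ± 0.74) and Scel (-4.40 ± 1.23) had 0 counts in fresh aged cells and stood at 114.2 to 143.2 and 143.5 to 153.1 CPM in aged cells on SoftY, so that these are no bounds either. The Scel call was lost without fresh young replicate 1 (-3.48, adjusted p = 0.173 in edgeR) or without any 1 of the fresh aged libraries. Ccn5 (-3.84 ± 0.23) was at 2.07 to 3.33 CPM in fresh aged cells and 2328 to 2419 on SoftY, and at 1970 and 2136 in young cells on SoftY. Spon2 (-3.70 ± 0.12) was at 237.7 to 244.3 CPM in fresh young cells and 295.3 and 292 on SoftY, against 13.78 to 15.4 and 224.9 to 244.9 in aged cells. Serpina3i (-4.62 ± 0.65), Cyp2d22 (-3.30 ± 0.81) and Notch3 (-3.28 ± 0.66) rose at both ages from fresh aged levels of at most 1.18 CPM. Without fresh aged replicate 3 Serpina3i and Cyp2d22 stood at -6.41 and -6.37, and the Cyp2d22 call was lost without fresh young replicate 2 (-2.73, adjusted p = 0.0535 in edgeR). Cyp26b1 (-2.99 ± 0.40), which degrades retinoic acid, fell in young cells from 56.02 to 69.53 CPM to 8.91 and 13.47 and lay at 12.03 to 20.81 against 22.46 to 22.85 in aged cells.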

How the results depend on the processing

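No named value changed direction past its threshold under any setting run. The counts of SoftY over fresh stayed within 1.5 times of 3129 higher and 3124 lower, with 2580 to 3042 higher and 2393 to 2843 lower when any 1 of the 5 libraries was left out. Of the 4601 calls made without both first libraries, an omission chosen after seeing the data, 4369 were also calls of the full comparison. SoftY over the other substrates moved from 466 higher and 429 lower to 217 and 230 with counts thinned to the smallest library, and to 219 to 528 higher and 127 to 488 lower over libraries left out, lowest without SoftY replicate 1. Its share of higher calls was 52.1%, and 63.6% without a filter on low counts. The difference between ages moved from 741 higher and 797 lower to 466 and 1431 with library totals alone, where the share of higher calls went from 48.2% to 24.6%, and to 377 and 462 with thinned counts, and was 547 to 686 higher and 600 to 745 lower over libraries left out. The cause was not tested, except that thinning lowers the counts by construction.

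The SoftY libraries are numbered 1 and 2 in their titles but 1 and 3 in their library names. Over 9472 genes the difference between the SoftY libraries was correlated with that between the same-numbered fresh libraries. The correlation was 0.32 by title numbers and 0.36 by library-name numbers. Both values share the SoftY difference and fresh replicate 1, so they cannot tell the pairings apart. There are only 2 pairs in each, and the labels tie the numbers to nothing shared. With the replicate block by title numbers SoftY over fresh gave 3150 higher and 3186 lower, SoftY over the other substrates 494 and 430, and the difference between ages 826 and 891. With the block by library-name numbers these were 3264 and 3208, 555 and 523, and 850 and 861. Depth limits genes under 10 CPM, which rest on at most 34.6 counts in a library.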

Other observations

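Fresh replicates 2 and 3 each lay at least 2-fold above both other fresh libraries in 10 genes with a mean of at least 10 CPM, against 178 for replicate 1. They lay at least 2-fold below both others in 21 and 50 genes, against 27 for replicate 1, and SoftY replicate 1 lay above replicate 2 in 9 (42.9%), 32 (64%) and 10 (37%) of these, against 50.2% of all genes. Of those 178 genes 38 (21.3%) were called between SoftY and fresh, against 5020 of 9472 (53%). Fzd1, a Wnt receptor gene, was at 53.33, 17.04 and 12.21 CPM in fresh cells and 65 and 27.37 on SoftY, and Igfbp7, an IGF-binding protein gene, at 95.99, 34.65 and 34.77 against 400.6 and 212 (2.47, and 3.18 without fresh replicate 1). The cause was not tested.

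Of 10 prostaglandin genes 4 fell and 2 rose, the latter near the 23.1% higher over all genes tested. Ptger4, a prostaglandin E2 receptor gene, rose from 15.14, 12.42 and 11.74 CPM to 61.37 and 62.13 (2.23 ± 0.20, adjusted p = 8.24e-11 in edgeR's quasi-likelihood test). Ptges3, which acts in prostaglandin E2 synthesis and as a chaperone partner, fell from 1358, 1591 and 1522 CPM to 779.7 and 648.3 (-1.06 ± 0.20), and the prostacyclin receptor gene Ptgir was not called (-0.21 ± 0.12).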
